A study of Rattus norvegicus with 12 samples.

Results

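The genes described here are the 9 Hsp70 and Hsp110 chaperone genes Hspa1b, LOC108348108, Hspa8, LOC680121, Hspa2, Hspa9, Hsph1, Hspa4 and Hspa4l. They were taken by gene name from 32883 genes in the deposited tables, and all 9 passed the filter on low counts that left 13230 genes for testing. The rows Hspa1b and LOC108348108 are near-identical copies, and so are Hspa8 and LOC680121. Reads that fit either copy can be given to both, so each pair was also summed and tested as 1 item. RNA was sequenced from 1464R cells, an immortalized line of adult rat neural stem cells, after 4 days of differentiation with retinoic acid into neuronal and glial cells. All groups spent the last 48 h in a medium without serum or added antioxidants. Control cells received vehicle only, and Eda cells received edaravone, a free-radical scavenger used to treat amyotrophic lateral sclerosis, at 50 μmol/L for 48 h. TDP-43 + EA cells were infected with adenoviruses for human TDP-43 and, for the last 24 h, received 20 μmol/L ethacrynic acid (EA), which blocks glutathione S-transferases. TDP-43 + EA + Eda cells had the viruses, ethacrynic acid and edaravone at these doses, with edaravone given from 24 h ahead of ethacrynic acid. The sample labels name a virus for the C-terminal fragment of TDP-43, while the methods of the study name this virus together with one for the full-length protein. In the groups analysed here, viruses and ethacrynic acid came only together, so their effects cannot be told apart. The model is 1 cell line, and each group had 3 libraries. The study describes its replicates as coming from separate experiments, and the labels do not say which library belongs to which experiment.

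Library totals ran from 17.42 to 43.91 M counts, and the deepest library was TDP-43 + EA + Eda replicate 1, with the other 11 at 24.64 M or below. The TMM scaling factors, which correct for a few genes taking up many reads, were 0.829 to 0.860 in TDP-43 + EA + Eda and 1.02 to 1.10 in the other groups. Levels in TPM are corrected for gene length and scaled to the same total in every library. Tardbp, the rat gene of TDP-43, stood at 51.4 to 59.7 TPM in the 6 libraries without virus. It stood at 1490.4 to 4057 TPM in the 6 libraries with virus, so every library followed its label for the virus. This level does not check the labels for edaravone or ethacrynic acid. The labels call the differentiated cells motor neuron-like. The 6 motor neuron markers together reached at most 1.20 TPM in any library, none of the 6 averaged 1 TPM in any group, and the summed oligodendrocyte lineage markers reached 40516 TPM. In Control libraries, summed general neuronal markers spanned 385 to 470 TPM, astrocyte markers 465 to 570 TPM and neural stem cell markers 547 to 721 TPM. These sums rest on part of each list. In Control, 4 of 10 neuronal, 3 of 8 astrocyte and 4 of 7 stem cell markers averaged at least 1 TPM. Tubb3 alone averaged 332 TPM there, so the sums do not show how many cells of each type were present.

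Hsp70 proteins bind exposed stretches of unfolded proteins and release them in a cycle driven by ATP. J-domain proteins start this cycle, and nucleotide exchange factors, among them the Hsp110 proteins, reset it by freeing ADP. Cells keep a constitutive Hsp70, Hspa8 (Hsc70), for everyday folding and vesicle uncoating, and make inducible Hsp70 from Hspa1 genes when heat shock factor 1 binds heat shock elements in their promoters. In neurons Hsp70 and Hsp110 are known for keeping aggregation-prone proteins soluble.

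RefSeq promoter windows, from 250 bases before to 50 bases after each gene start on the GRCr8 assembly, were found for 6 of the 9 members: Hspa8, Hspa2, Hspa4, Hspa4l, Hsph1 and Hspa9. A single window was searched for each of these genes, so any other start of a gene was not covered. The heat shock element was searched as 2 inverted units, GAANNTTC or TTCNNGAA, each of which reads the same on both strands, and as 3 units, a 2-unit match with 1 more inverted unit after a gap of 2 bases. A 3-unit match contains 2-unit matches, so the counts overlap. Hspa4 and Hspa4l, which are not printed, hold no match before the start. Their log2 fold changes in TDP-43 + EA against Control were 0.84 and 1.23, and a link between motif and change was not tested. The 4 sequences below show the members with a match before the start. Hspa8 and Hsph1 hold 3-unit matches, while the 250 bases before the start of Hspa2 and of Hspa9 hold 1 match of 2 units each. Each is the 250 bases before the start, 5′ to 3′ on the gene's strand, with the bases of the matched units in capitals.
Hspa8 (chr8:50080264-50080513, plus strand): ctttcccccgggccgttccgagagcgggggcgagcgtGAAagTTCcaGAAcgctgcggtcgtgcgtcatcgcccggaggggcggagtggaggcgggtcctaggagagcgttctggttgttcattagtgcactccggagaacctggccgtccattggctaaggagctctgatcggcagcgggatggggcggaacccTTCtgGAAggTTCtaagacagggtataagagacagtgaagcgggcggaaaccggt
Hsph1 (chr12:10427118-10427367, plus strand): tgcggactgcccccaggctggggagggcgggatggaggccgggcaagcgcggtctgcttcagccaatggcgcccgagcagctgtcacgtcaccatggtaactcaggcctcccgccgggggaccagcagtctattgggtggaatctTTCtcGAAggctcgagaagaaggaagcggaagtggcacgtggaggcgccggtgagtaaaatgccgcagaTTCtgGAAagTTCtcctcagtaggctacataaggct
Hspa2 (chr6:100864192-100864441, plus strand): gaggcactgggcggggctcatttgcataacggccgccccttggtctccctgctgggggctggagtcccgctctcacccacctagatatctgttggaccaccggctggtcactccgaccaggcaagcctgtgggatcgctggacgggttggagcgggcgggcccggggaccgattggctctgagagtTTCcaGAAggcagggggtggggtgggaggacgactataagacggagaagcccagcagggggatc
Hspa9 (chr18:26828399-26828648, minus strand): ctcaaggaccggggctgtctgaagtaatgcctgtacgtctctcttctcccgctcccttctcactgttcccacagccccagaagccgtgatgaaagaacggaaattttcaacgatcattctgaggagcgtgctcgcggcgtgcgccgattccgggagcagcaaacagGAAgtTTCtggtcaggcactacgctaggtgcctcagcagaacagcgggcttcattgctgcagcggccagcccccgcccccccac

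Counting the start itself as 0, the 3-unit matches began at -213 and -55 in Hspa8 and at -36 in Hsph1. This form was held by 267 of 33469 rat windows of the same length (0.798%). The 2-unit form was held by 15.9% of windows, and among the members it also stood alone at -105 in Hsph1, at -64 in Hspa2, at -84 and 17 in Hspa9 and at 38 in Hspa4l. Hspa4 had neither form in its window. The antioxidant response element, searched on both strands as TGACNNNGC, was in none of the 6 windows and in 12.1% of all windows, and the CCAAT box was in 4 of the 6 members (Hspa8, Hspa2, Hspa4l and Hsph1) and in 37.5% of all windows. These matches are letters only, and binding of a factor was not measured.

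**Figure D1:**
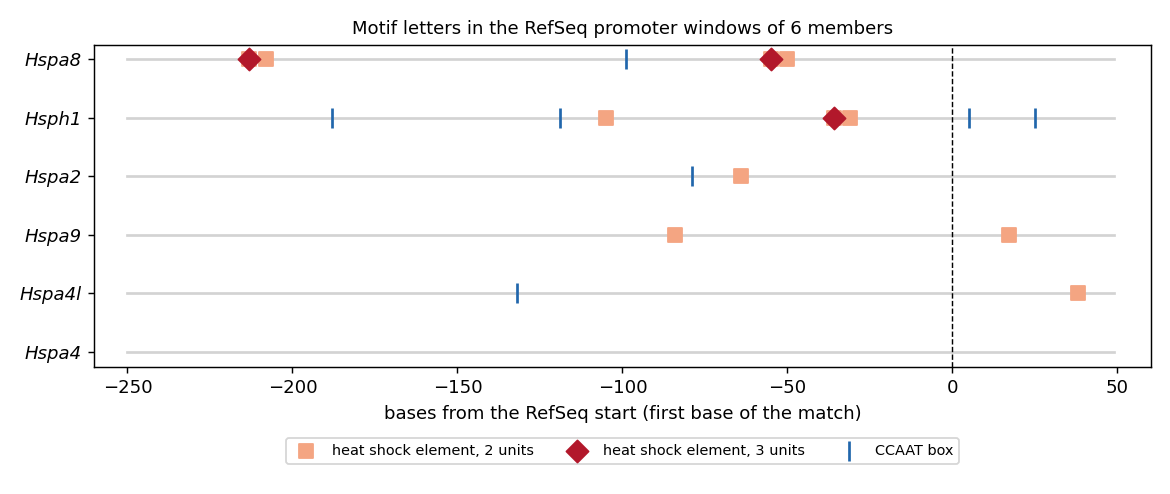
Positions of motif letters in the promoter windows of 6 members, in bases from the RefSeq start (x axis, first base of each match; the dashed line is the start). Red diamonds are 3-unit heat shock elements, orange squares 2-unit ones and blue ticks CCAAT boxes; only Hspa8 (-213 and -55) and Hsph1 (-36) have diamonds.

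The first comparison asked what the viruses and ethacrynic acid together changed. In TDP-43 + EA against Control, 7 of the 9 members rose, 1 fell (Hspa2) and 1 did not pass the test (Hspa9), where passing means an edgeR p of 0.05 or lower after Benjamini-Hochberg adjustment. Among all 13230 genes tested, 19.6% rose and 18.7% fell, and on log2(TPM + 1) values limma-trend counted 1996 higher and 3290 lower. The members' median log2 fold change was 1.95, beside 0.00 over all genes. Here and below, counts and medians of members take the 2 rows of each pair separately, although these share reads. Taking each pair as 1 summed item, the log2 fold changes were 9.16 (Hspa1b pair), 4.04 (Hsph1), 1.96 (Hspa8 pair), 1.23 (Hspa4l), 0.84 (Hspa4), 0.32 (Hspa9) and -1.05 (Hspa2). The second comparison asked what edaravone changed in the stressed cells. Relative to TDP-43 + EA, 8 members in TDP-43 + EA + Eda rose and none fell, with Hspa2 the one that did not pass, beside 15.4% of all genes higher and 15% lower. The members' median was 0.97, beside -0.02 over all genes. Taking each pair as 1 summed item, the values were 1.20 (Hspa8 pair), 1.10 (Hsph1), 1.01 (Hspa1b pair), 0.61 (Hspa9), 0.60 (Hspa4l), 0.54 (Hspa4) and 0.22 (Hspa2). With library totals in place of TMM factors, the split over all genes turned to 816 higher and 4520 lower in edgeR, the median of all genes shifted by -0.28, and the members that rose were 6. The comparisons share libraries, so their values are given side by side and are not independent.

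**Figure D2:**
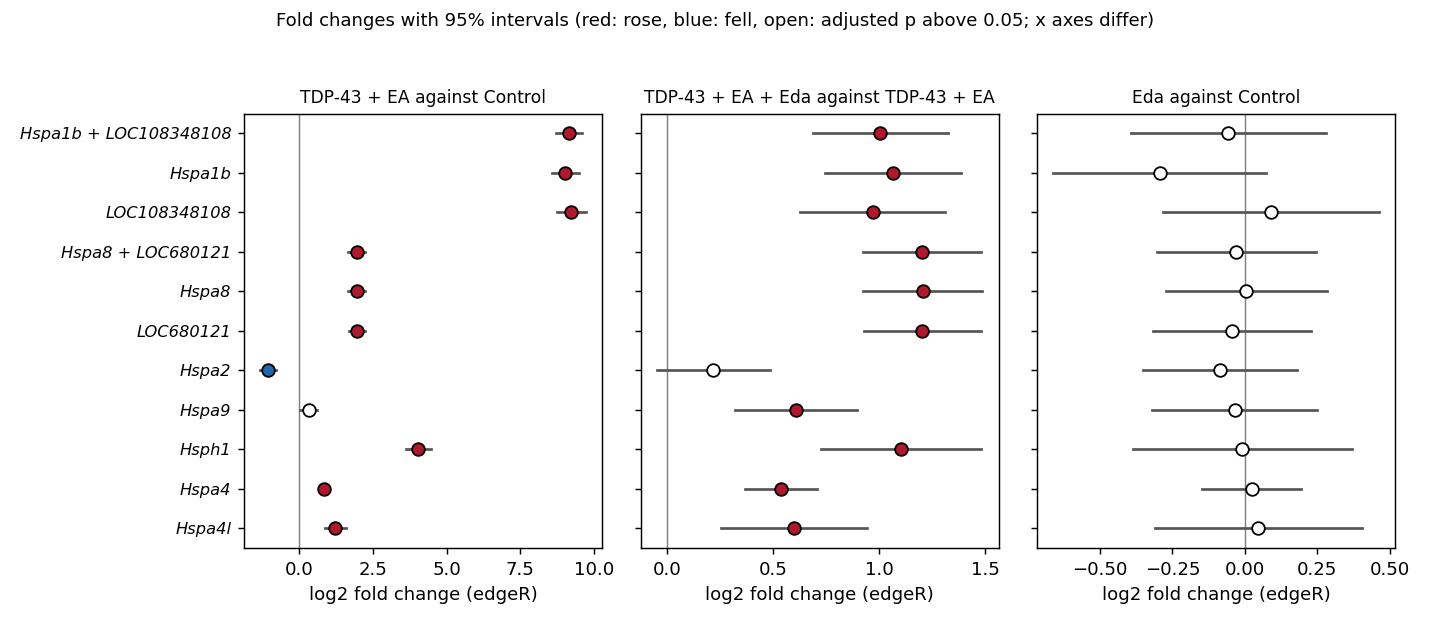
Log2 fold changes of the 9 members and the 2 summed pairs in 3 comparisons (x axes, edgeR, each with its own range), with 95% intervals as bars. Red points rose, blue fell and open points had an adjusted p above 0.05; the Hspa1b pair stands at 9.16 in TDP-43 + EA against Control, and every point is open in Eda against Control.

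Against Control, the inducible pair had the largest log2 fold change among the members, while with edaravone in stressed cells its value (1.01) was below those of the Hspa8 pair (1.20) and Hsph1 (1.10), differences that were not tested. Hspa1b (ENSRNOG00000050647, Rnor_6.0 chromosome 20, 4877324 to 4879779, minus strand) encodes stress-inducible Hsp70. LOC108348108 (ENSRNOG00000045654, chromosome 20, 2699712 to 2701815, minus strand) is described in the tables as heat shock 70 kDa protein 1A, and both rows carry the same Entrez number. Summed, the pair stood at 21.0, 24.3 and 20.8 TPM in the Control libraries, at 20.4, 23.9 and 21.8 TPM in Eda, at 10839, 10141 and 13233 TPM in TDP-43 + EA and at 22970.0, 14857 and 18295 TPM in TDP-43 + EA + Eda. The Control and Eda libraries overlapped, every TDP-43 + EA library lay far above them, and every TDP-43 + EA + Eda library lay above every TDP-43 + EA library. On the scale of counts the pair went up by 9.16 log2 units (SE 0.21, 571-fold, edgeR adjusted p = 9.65e-13) in TDP-43 + EA against Control. With edaravone it rose by a further 1.01 (SE 0.15, 2.01-fold, edgeR adjusted p = 0.00022). Without TDP-43 + EA + Eda replicate 1, which was both the deepest library and the highest for the pair, this second log2 fold change was 0.80 (edgeR adjusted p = 0.000471).

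The copies moved alike. Hspa1b itself had 7.94, 8.52 and 7.83 TPM in Control and 3853, 3516 and 4173 TPM in TDP-43 + EA, and LOC108348108 had 13.1, 15.7 and 12.9 TPM and 6987, 6624 and 9059 TPM. With edaravone, Hspa1b stood at 8360, 5179 and 6272 TPM and LOC108348108 at 14610.3, 9678 and 12023 TPM. LOC108348108 was the higher row in all 12 libraries. Hspa1b took 29.9 to 42.7% of the counts of the pair over the 12 libraries, 39.5 to 42.7% among Control libraries and 35.7 to 39.8% among TDP-43 + EA libraries. Hspa1b rose by a log2 fold change of 9.03 and LOC108348108 by 9.24 in TDP-43 + EA against Control, and by 1.06 and 0.97 with edaravone. Since the copies share reads, how far the split between them reflects transcription of each locus was not tested.

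The constitutive pair was the most abundant item in unstressed cells and rose severalfold. Hspa8 (ENSRNOG00000034066, chromosome 8, 44990014 to 44993179, plus strand) encodes Hsc70, which also strips clathrin from vesicles. LOC680121 (ENSRNOG00000009920, chromosome 11, 13499164 to 13501263, plus strand) is described as similar to heat shock protein 8, and its annotated span equals its gene length of 2100 bases, so the row has no intron. The files class it as protein-coding, but its Entrez number belongs to an Hspa8 pseudogene in the RefSeq gene table, so its counts may be reads of Hspa8 and its rise is not evidence of a second gene that changed. Summed, the pair had 1467, 1378 and 1534 TPM in Control, 1498, 1414 and 1518 TPM in Eda, 5354, 4696 and 5754 TPM in TDP-43 + EA and 12137, 8066 and 10224 TPM in TDP-43 + EA + Eda. Control and Eda overlapped, and the stressed groups were separated from them and from each other. Its log2 fold change was 1.96 (SE 0.13, 3.88-fold, edgeR adjusted p = 6.62e-08) in TDP-43 + EA against Control and 1.20 (SE 0.13, 2.30-fold, edgeR adjusted p = 2.35e-05) with edaravone. Without the deepest library, the second value was 1.04 (edgeR adjusted p = 5.13e-05).

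The row LOC680121 took 70.8 to 73.1% of the counts of its pair in all 12 libraries, so most counts of the pair were given to the intronless row. The log2 fold changes of Hspa8 and LOC680121 were 1.95 and 1.96 in TDP-43 + EA against Control and 1.20 for each with edaravone. The pseudogenes LOC688655 and LOC688932 are also described as similar to heat shock protein 8, and LOC688655 had 969 to 1031 counts across Control libraries and 3173 to 4221 counts across TDP-43 + EA libraries. Hspa8 carries the 3-unit heat shock elements printed above.

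**Figure D3:**
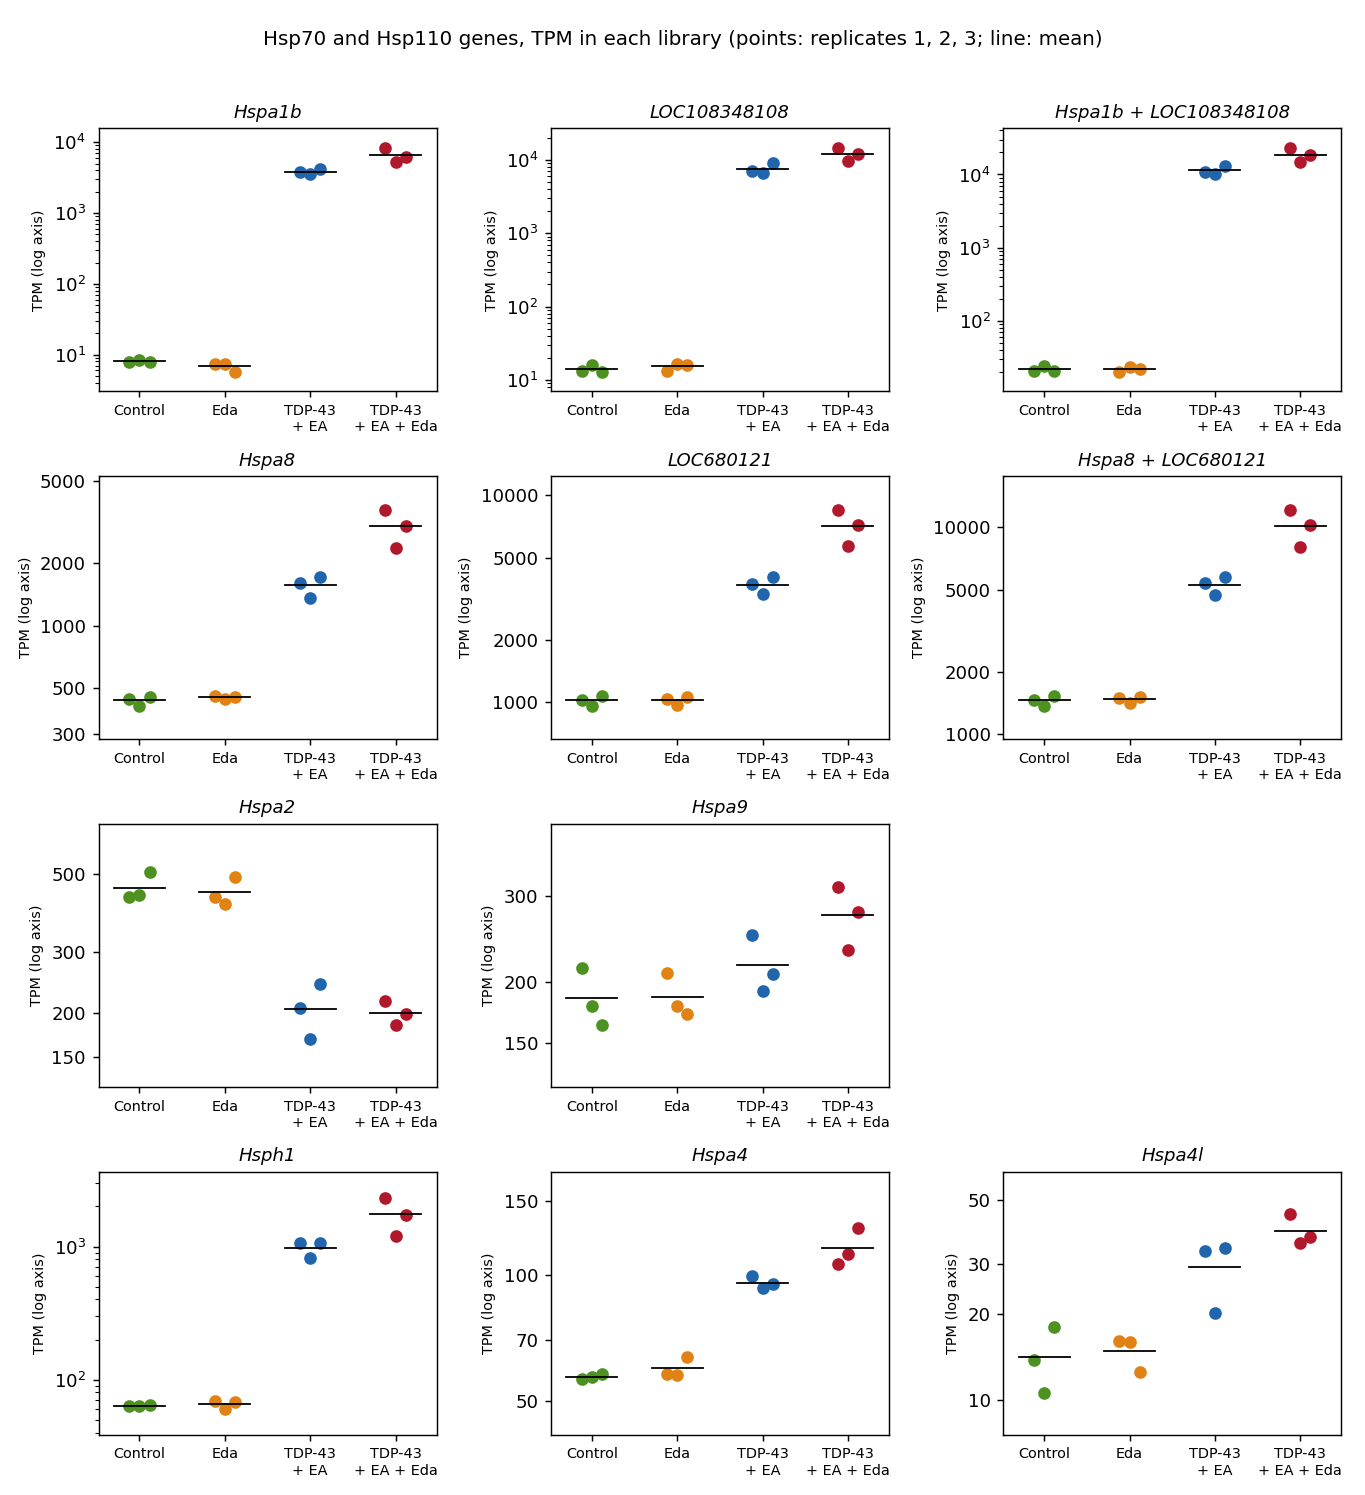
TPM of the 9 members and the 2 summed pairs in each of the 12 libraries (y axes logarithmic, points are replicates 1 to 3 of each group, lines are group means). The summed Hspa1b pair goes from about 22.0 TPM in Control to 11404 TPM in TDP-43 + EA, Hspa2 goes from 457 to 206 TPM, and 8 of the 9 members are highest in replicate 1 within TDP-43 + EA + Eda.

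Of the 2 pairs, the inducible one went from the lesser to the greater. The TPM ratio of the Hspa1b pair to the Hspa8 pair lay between 0.0135 and 0.0176 in Control and between 0.0136 and 0.0169 in Eda. The TDP-43 + EA libraries had ratios of 2.02 to 2.30 and the TDP-43 + EA + Eda libraries 1.79 to 1.89, so the libraries with edaravone lay below those without it although both pairs were higher. With TMM-scaled counts (CPM) in place of TPM, the ratios were 2.19 to 2.48 without edaravone and 1.96 to 2.13 with it, again without overlap. The difference between these groups was not tested. As shares of all counts in a library, the 9 members took 0.344 to 0.368% of Control libraries and 0.343 to 0.366% of Eda libraries. The share was 2.60 to 3.29% of TDP-43 + EA libraries and 3.98 to 6.15% of those that also had edaravone. The Hspa1b pair alone went from 0.0031 to 0.0035% of Control libraries to 2.36 to 3.69% of TDP-43 + EA + Eda libraries.

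**Figure D4:**
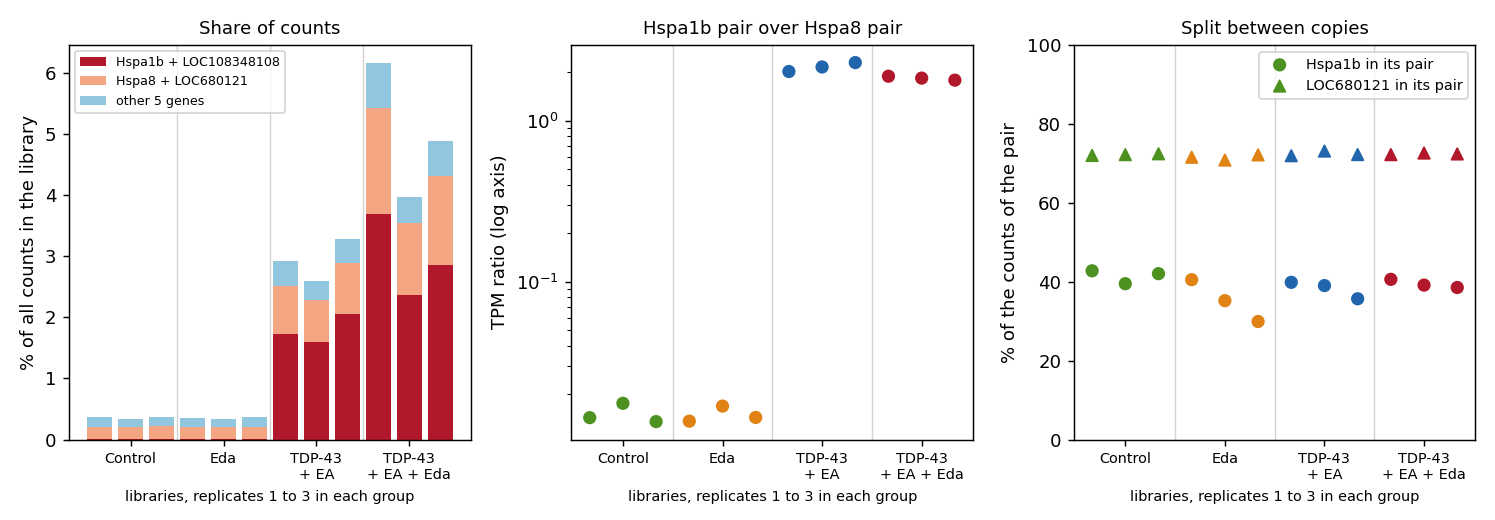
Left, percent of all counts in each library taken by the Hspa1b pair, the Hspa8 pair and the other 5 members (stacked bars from 0); the deepest library reaches 6.15%; middle, TPM ratio of the Hspa1b pair to the Hspa8 pair (logarithmic axis), below 0.02 in Control and Eda and between 1.79 and 2.30 in the stressed groups. At right, percent of the counts of each pair in Hspa1b (circles) and in LOC680121 (triangles), the latter between 70.8 and 73.1% in all 12 libraries.

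The 3 Hsp110 genes, whose proteins act as nucleotide exchange factors of Hsp70 and help it to dissolve aggregates, all rose. Hsph1 (Hsp105, ENSRNOG00000000902, chromosome 12, 6322668 to 6341902, minus strand of Rnor_6.0) changed most. It had 63.1, 63.1 and 64.9 TPM in Control, 68.6, 60.01 and 67.8 TPM in Eda, 1059, 816 and 1064 TPM in TDP-43 + EA and 2319, 1209 and 1726 TPM in TDP-43 + EA + Eda. Control and Eda overlapped, and each stressed group lay wholly above the one before it, with the widest spread in TDP-43 + EA + Eda. For Hsph1 the log2 fold change was 4.04 (SE 0.20, 16.5-fold, edgeR adjusted p = 2.82e-09) in TDP-43 + EA against Control and 1.10 (SE 0.18, edgeR adjusted p = 0.000389) with edaravone. The second value was 0.83 (edgeR adjusted p = 0.00087) without the deepest library. Among the 6 promoter windows found, its own is the other one with a 3-unit heat shock element. No window was found for the Hspa1b pair, and a link between these motifs and the changes was not tested.

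Hspa4 (Apg-2, ENSRNOG00000016596, chromosome 10, 38601624 to 38642397) is the constitutive Hsp110 of most tissues. It had 56.4, 57.0 and 58.2 TPM in Control, 58.2, 57.7 and 63.9 TPM in Eda, 99.1, 93.2 and 95.1 TPM in TDP-43 + EA and 106, 112 and 129.6 TPM in TDP-43 + EA + Eda. The 3 stressed libraries without edaravone lay close together, above all unstressed ones and below all with edaravone, and replicate 3 rather than the deepest library was the highest of the last group. For Hspa4 the log2 fold change was 0.84 (SE 0.08, edgeR adjusted p = 1.67e-06) in TDP-43 + EA against Control and 0.54 with edaravone (SE 0.08, edgeR adjusted p = 0.000216). Its promoter window holds no heat shock element of either form.

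Hspa4l (Apg-1, ENSRNOG00000010819, chromosome 2, 127625683 to 127677503) was the lowest item in every group when the copies of each pair are summed, although the Hspa1b row alone was lower in Control and Eda. It had 13.8, 10.6 and 18.0 TPM in Control, 16.1, 16.0 and 12.5 TPM in Eda, 33.2, 20.3 and 34.0 TPM in TDP-43 + EA and 44.8, 35.4 and 37.2 TPM in TDP-43 + EA + Eda. TDP-43 + EA replicate 2 stood low in its group but above every Control library, and the 2 stressed groups did not overlap. The rise in TDP-43 + EA against Control was a log2 fold change of 1.23 (SE 0.17, edgeR adjusted p = 4.59e-05). The rise with edaravone, 0.60 (SE 0.16, edgeR adjusted p = 0.012), no longer passed without the deepest library (0.50, edgeR adjusted p = 0.0558), with library totals in place of TMM factors (0.32, edgeR adjusted p = 0.125) or on log2(TPM + 1) values (0.44, limma-trend adjusted p = 0.107).

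Hspa2 was the one member that fell. Hspa2 (ENSRNOG00000006472, chromosome 6, 99433550 to 99436289, plus strand) encodes an Hsp70 best known for its part in sperm formation in mouse and also expressed in brain. It had 429.5, 435 and 505 TPM in Control, 431, 409 and 490.3 TPM in Eda, 206, 169 and 242 TPM in TDP-43 + EA and 217, 185 and 199.5 TPM in TDP-43 + EA + Eda. Every stressed library lay below every unstressed one, and the 2 stressed groups overlapped. Hspa2 fell by 1.05 on the log2 scale (SE 0.13, 0.482-fold, edgeR adjusted p = 1.45e-05) in TDP-43 + EA against Control. With edaravone its log2 fold change was 0.22 (SE 0.12, 95% interval -0.05 to 0.48, edgeR adjusted p = 0.212), and with library totals in place of TMM factors -0.06. In the same libraries, the summed TPM of 13 oligodendrocyte lineage markers spanned 32286 to 40516 across Control libraries and 30333 to 35598 across Eda libraries. It spanned 15137 to 19266 across TDP-43 + EA libraries and 12253 to 16471 across those with edaravone. Of these 13 markers, 11 averaged at least 1 TPM in each group. Cspg4 and Pdgfra did not, with highest group means of 0.33 and 0.34 TPM, both in Control. In bulk RNA fewer cells of a type and less RNA per cell cannot be told apart, and the part of these cells in the level of Hspa2 was not tested.

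Hspa9 (mortalin, ENSRNOG00000019525, chromosome 18, 27731072 to 27749235, minus strand) is the Hsp70 of the mitochondrial matrix, where it pulls in and folds imported proteins. It had 214, 179 and 164 TPM in Control, 209, 179 and 172 TPM in Eda, 249.5, 192 and 208 TPM in TDP-43 + EA and 314, 232 and 278 TPM in TDP-43 + EA + Eda. The first 3 groups overlapped. TDP-43 + EA + Eda stood wholly above Control but overlapped TDP-43 + EA. The log2 fold change in TDP-43 + EA against Control, 0.32 (SE 0.13, 95% interval 0.04 to 0.61), had an edgeR adjusted p of 0.0715 and a DESeq2 adjusted p of 0.0481. When the replicate number was added to the fit as a block, the edgeR adjusted p was 0.00206, so this call depends on the model. With edaravone Hspa9 rose by 0.61 (SE 0.13, edgeR adjusted p = 0.00346). That call did not pass with library totals in place of TMM factors (0.33, edgeR adjusted p = 0.0611) or on log2(TPM + 1) values (0.34, limma-trend adjusted p = 0.0545).

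The third comparison asked what edaravone did to unstressed cells. In Eda against Control none of the 9 members passed the test in either direction in edgeR, and 0% of all genes rose and 0% fell. At an unadjusted p under 0.05, edgeR counted 539 of 13230 genes and 0 of the 9 members, while at an adjusted p of at most 0.05 DESeq2 called 9 genes and limma-trend on log2(TPM + 1) values called 1, none of them a member. The largest difference was that of Hspa1b, a log2 fold change of -0.29 (95% interval -0.66 to 0.07, edgeR adjusted p = 1). Its 3 Eda libraries, at 7.38, 7.42 and 5.72 TPM, lay below the 3 Control libraries. LOC108348108 went the other way (0.09, 95% interval -0.28 to 0.46), and the summed pair differed by -0.06 with a 95% interval from -0.39 to 0.28. For the members other than Hspa1b and LOC108348108, the intervals lay within -0.39 and 0.40.

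The interaction asked whether the change with edaravone differed between stressed and unstressed cells. It was positive and passed the test for 7 of the 9 members, against 8.42% of all genes in that direction and 7.04% in the other. Those members were Hspa1b, LOC108348108, Hspa8, LOC680121, Hsph1, Hspa4 and Hspa9. The summed Hspa1b pair differed by a log2 value of 1.06 (SE 0.22, edgeR adjusted p = 0.00525) and the summed Hspa8 pair by 1.23 (SE 0.18, edgeR adjusted p = 0.000916). Hspa2 (0.30, edgeR adjusted p = 0.272) and Hspa4l (0.55, edgeR adjusted p = 0.127) did not pass. Hspa4l did pass when the replicate number was added to the fit as a block (edgeR adjusted p = 0.0368). With library totals in place of TMM factors, 4 members passed (LOC108348108, Hspa4 and Hspa9 did not), and the split of all genes turned from 1114 higher and 931 lower to 377 higher and 2927 lower in edgeR. On log2(TPM + 1) values Hsph1 missed the threshold too (limma-trend adjusted p = 0.0517). LOC108348108 lost its call without Control replicate 2 (edgeR adjusted p = 0.0527) or Eda replicate 1 (edgeR adjusted p = 0.0603). Hspa9 (0.64, edgeR adjusted p = 0.0333) lost its call without any 1 of 7 libraries, at edgeR adjusted p of 0.0599 to 0.0943, these being Control replicate 1, Eda replicates 2 and 3, TDP-43 + EA replicates 2 and 3 and TDP-43 + EA + Eda replicates 1 and 3.

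The fourth comparison set the cells with all treatments against Control. In TDP-43 + EA + Eda against Control 8 members rose and Hspa2 fell, beside 27.1% of all genes higher and 30.4% lower. With library totals the split of all genes was 2325 higher and 5965 lower, and the members' calls stayed at 8 and 1. The summed Hspa1b pair was at a log2 fold change of 10.16 (SE 0.22), the summed Hspa8 pair at 3.16 (SE 0.14), Hsph1 at 5.14 (SE 0.21), Hspa4l at 1.82 (SE 0.17), Hspa4 at 1.38 (SE 0.08), Hspa9 at 0.93 (SE 0.13) and Hspa2 at -0.84 (SE 0.13). In this comparison every member passed, Hspa9 included (edgeR adjusted p = 3.39e-05).

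The order of the levels, compared per length as TPM, changed with stress. In Control it was the Hspa8 pair (1459 ± 78.4 TPM, mean ± SD, n = 3), Hspa2 (457 ± 42.2), Hspa9 (185 ± 25.6), Hsph1 (63.7 ± 1.02), Hspa4 (57.2 ± 0.93), the Hspa1b pair (22.0 ± 1.94) and Hspa4l (14.1 ± 3.74), and no neighbours overlapped. In Eda the order was the same, with Hsph1 and Hspa4 overlapping. In TDP-43 + EA the Hspa1b pair led (11404 ± 1621.6 TPM), followed by the Hspa8 pair (5268 ± 534), Hsph1 (980 ± 142), Hspa9 (217 ± 29.7), Hspa2 (206 ± 36.3), Hspa4 (95.8 ± 3.04) and Hspa4l (29.1 ± 7.70). Only Hspa9 and Hspa2 overlapped there. In TDP-43 + EA + Eda the order stayed, from 18707.5 ± 4072 TPM for the Hspa1b pair to 39.1 ± 4.98 TPM for Hspa4l, and no neighbours overlapped. In that group 8 of the 9 members were highest in replicate 1 and 8 were lowest in replicate 2, Hspa4 being the exception at both ends. Replicate 1 was the deepest library, and the part of its depth in these levels was not tested.

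Of 7 other Hsp70 superfamily genes tested, 2 rose in TDP-43 + EA against Control and none fell, beside 19.6% of all genes higher and 18.7% lower. Hspa1l, a relative of Hspa1b best known from testis, went up by 4.71 log2 units (SE 0.47, edgeR adjusted p = 2.48e-06) from a low level, averaging 0.54 TPM without and 13.4 TPM with the combined stress. Its TDP-43 + EA counts, 398 to 569 per library, were not whole numbers before rounding, so they may include reads shared with other genes. The Hspa1b pair had 303216 to 431341 counts in these libraries. How much of the rise of Hspa1l comes from shared reads was not tested. Hspa5 (BiP), the Hsp70 of the endoplasmic reticulum, rose by 0.50 (SE 0.10, edgeR adjusted p = 0.00126), from 447 to 591 TPM. Hspa14 stood at -0.11 and did not pass (edgeR adjusted p = 0.461). With edaravone Hspa5 rose by 0.57 (edgeR adjusted p = 0.000839), and Hspa1l, at 0.97, missed the threshold (edgeR adjusted p = 0.0501). Hspa12b fell by 2.05 on the log2 scale (edgeR adjusted p = 0.0232) on 3 to 6 counts per library with edaravone, a call lost without the deepest library (edgeR adjusted p = 0.0961). Under library totals 1 rose (Hspa5) and 4 fell (Hyou1, Hspa13, Hspa14 and Hspa12b), so the number that fell depends on the scaling.

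Of 13 cytosolic J-domain partners tested, 4 rose and 3 fell in TDP-43 + EA against Control, with a median log2 fold change of 0.08. Over all genes 19.6% rose and 18.7% fell. The risers by smallest adjusted p were Dnajb1 (3.56, SE 0.15, edgeR adjusted p = 7.05e-10), the J-domain protein most tied to inducible Hsp70, Dnaja1 (2.06, SE 0.14, edgeR adjusted p = 6.6e-08) and Dnaja4 (2.39, SE 0.16, edgeR adjusted p = 6.88e-08). With edaravone 9 of the 13 rose, none fell and 4 did not pass (median 0.36), beside 15.4% of all genes higher and 15% lower. The smallest adjusted p were those of Dnajb2 (0.67, edgeR adjusted p = 0.000343), Dnaja1 (0.86, edgeR adjusted p = 0.000351) and Dnaja2 (0.51, edgeR adjusted p = 0.00148). With library totals in place of TMM factors only 2 rose and 1 fell, so this count depends on the scaling, while Dnaja1 (0.58) and Dnajb2 (0.39) still passed.

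Of 8 nucleotide exchange factors outside the Hsp110 family, 1 rose and 2 fell in TDP-43 + EA against Control, close to the shares over all genes (19.6% and 18.7%). The riser was Bag3 (4.08, SE 0.16, edgeR adjusted p = 4.47e-10), which brings Hsp70 clients to autophagy, and its level went from 10.9 ± 1.38 to 171 ± 15.7 TPM. Hspbp1, an exchange factor, fell by 0.51 on the log2 scale (edgeR adjusted p = 0.00121) and Bag1 fell by 0.58 on the log2 scale (edgeR adjusted p = 0.0014). With edaravone 3 rose and none fell, beside 15.4% of all genes higher and 15% lower. The 3 were Bag3 (1.13, edgeR adjusted p = 6.95e-05), Bag1 (0.41, edgeR adjusted p = 0.016) and Bag5 (0.40, edgeR adjusted p = 0.049). With library totals in place of TMM factors 1 rose (Bag3, 0.85) and 3 fell.

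Of 8 linkers and regulators of Hsp70, 5 rose and 2 fell in TDP-43 + EA against Control, where 19.6% of all genes rose and 18.7% fell. Stip1 (Hop), which passes clients from Hsp70 to Hsp90, rose by 1.22 (SE 0.12, edgeR adjusted p = 1.7e-06), Hsf2, a heat shock transcription factor, by 1.21 (SE 0.14, edgeR adjusted p = 9.83e-06) and St13 (Hip), which steadies the ADP-bound form of Hsp70, by 0.84 (SE 0.11, edgeR adjusted p = 4.76e-05). The same genes were the 3 that rose with edaravone, and none fell, beside 15.4% of all genes higher and 15% lower. Stip1 rose by 1.10 (edgeR adjusted p = 1.97e-05), St13 by 0.72 (edgeR adjusted p = 0.000338) and Hsf2 by 0.72 (edgeR adjusted p = 0.00116). All 3 passed with library totals too, where 3 other genes fell, beside 816 higher and 4520 lower of all 13230 genes.

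Of 8 mitochondrial partners of Hspa9, 1 rose and 2 fell in TDP-43 + EA against Control, again close to the shares over all genes (19.6% and 18.7%). Dnajc19, a J-domain subunit of the import motor, fell by 0.72 on the log2 scale (SE 0.12, edgeR adjusted p = 0.000229), Grpel1, the exchange factor of mitochondrial Hsp70, fell by 0.28 (edgeR adjusted p = 0.0214), and Dnlz, a helper that keeps Hspa9 soluble, rose by 0.49 (edgeR adjusted p = 0.00387). With edaravone 1 fell and none rose, beside 15% of all genes lower and 15.4% higher. The 1 was Pam16, another part of the import motor, which fell by 0.47 (edgeR adjusted p = 0.00552). Grpel2 (0.29, edgeR adjusted p = 0.0533) and Dnajc19 (-0.31, edgeR adjusted p = 0.0641) did not pass. With library totals 5 of the 8 fell, so the number that fell depends on the scaling. In Eda against Control no gene of the 5 lists passed the test in edgeR.

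**Figure D5:**
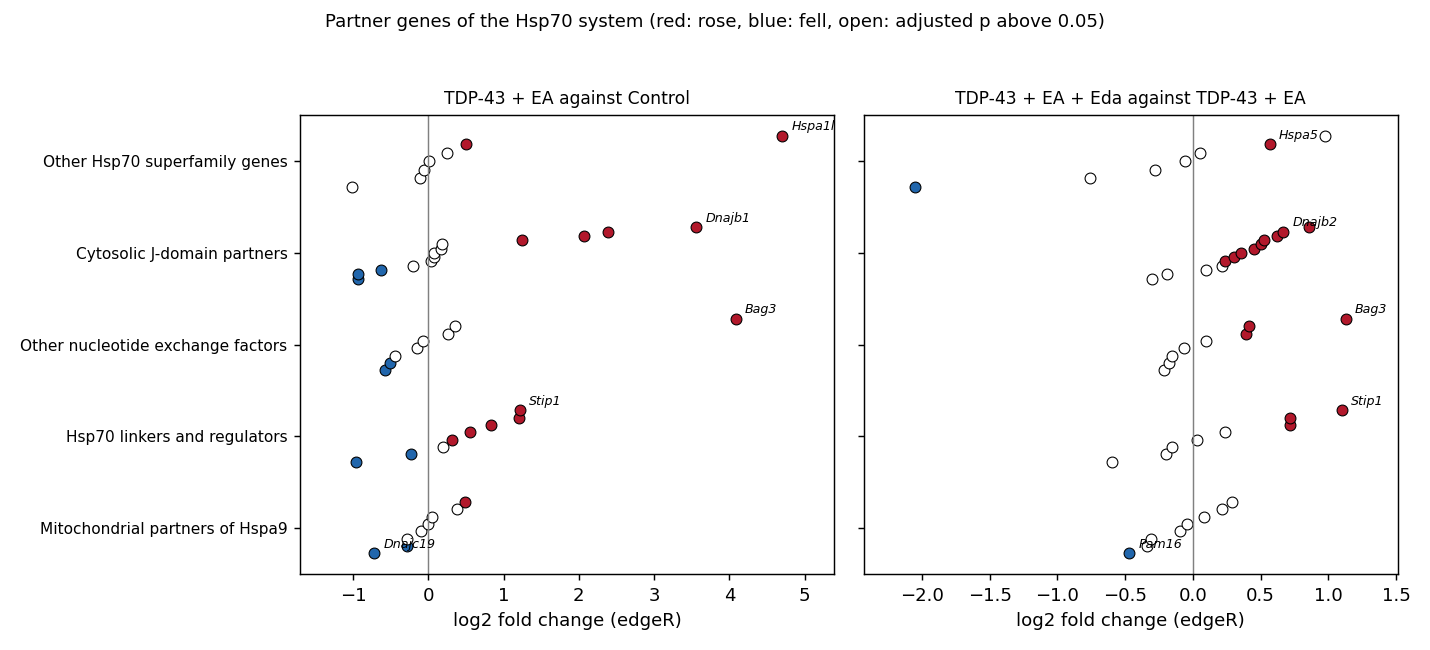
Log2 fold changes (x axes, edgeR) of the genes of the 5 partner lists in stressed cells against Control (left) and in stressed cells with against without edaravone (right), 1 point per gene, with the gene of smallest adjusted p named. Red points rose, blue fell and open points had an adjusted p above 0.05; Hspa1l (4.71), Bag3 (4.08) and Dnajb1 (3.56) stand to the right on the left panel.

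The genes most like each member were taken by Pearson's r of log2 CPM over the 12 libraries, which share 4 groups, so r mostly follows the group differences and is given as a description. For the Hspa1b pair they were Zfand2a, Tardbp and Dnajb1, each at r = 0.996. Zfand2a, which encodes an arsenite-inducible AN1 zinc finger protein, had mean levels of 29.8 TPM (Control), 937 TPM (TDP-43 + EA) and 1774 TPM (TDP-43 + EA + Eda). Tardbp, at 56.7, 1844 and 2882 TPM in these groups, may hold reads of the viral TDP-43, whose share was not tested. For Hsph1 they were Bag3 (0.998), Zfand2a (0.997) and Mylip (0.997). For the Hspa8 pair they were AABR07031521.1 (1.00), classed as a processed pseudogene, AABR07048992.1 (0.999) and Ahsa1 (0.998), which encodes an activator of Hsp90. Whether AABR07031521.1 and AABR07048992.1 hold reads of Hspa8 was not tested, so their likeness is not evidence of separate genes that changed.

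The other members had likenesses of 0.976 to 0.994. Those of Hspa4 were Socs4, Usp37 and Kcmf1, each at r = 0.994, and those of Hspa4l were Gna13 (0.992), Ctdp1 (0.990) and Get4 (0.989). For Hspa9 the first was LOC100912578 (0.984), which the tables describe as stress-70 protein, mitochondrial-like, and class as a lincRNA, so it can share reads with Hspa9, followed by Eif2s2 (0.979) and Tgif1 (0.976). For Hspa2 they were Thtpa (0.988), Ugt1a6 (0.983) and Mog (0.981). Mog, a myelin gene among the 13 oligodendrocyte lineage markers, had mean levels of 258, 61.9 and 61.3 TPM in the same order of groups as Zfand2a above.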

How the data were processed

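RNA from 12 libraries of 1464R cells was sequenced with SMART-Seq v4 and Nextera XT kits, which keep neither strand nor molecular identifiers. The authors deposited estimated counts per gene (expected counts, not whole numbers) and, in a second table, TPM. The submitters' processing notes name bcl2fastq 2.20, DRAGEN, the rat build Rnor 6.0, R 3.6.0 and DESeq2 1.26.0. How the counter shared reads between copies is not given in the sources used here. Without strand, reads of overlapping genes cannot be told apart.

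Counts were rounded to whole numbers, and 13230 of 19455 genes with a count passed edgeR's expression filter. With R 4.3.3 and edgeR 4.0.16, TMM factors and a robust quasi-likelihood fit over all 12 libraries with group as the term gave 5 contrasts, adjusted by the Benjamini-Hochberg method over all genes tested, with the threshold at 0.05. Each pair of copies was summed and fitted with the rest. DESeq2 1.42.0, limma 3.58.1 (trend, on log2 TPM), RLE factors, library totals, other filters, the compared libraries alone, the replicate number as a block and leaving out each library were alternatives. Fits were tested on simulated data. Python 3.11.15, numpy 2.4.6, pandas 2.3.3 and matplotlib 3.10.9 made the summaries, motif matches and plots. Precision is limited by 3 libraries a group; the lowest member count in any library was 204.

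The members and gene lists were chosen with earlier results of these data known. Named partners are, per list, the 3 genes of lowest adjusted p in each of the first 2 comparisons, and named pattern neighbours are the 3 genes of highest Pearson's r. Any other gene named was chosen after its values were seen. The labels do not say whether libraries came from separate cultures or what a replicate number marks, so same-numbered libraries were not treated as pairs and p-values measure the spread between these libraries. Per-sample columns not used numbered 0.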

Additional observations from a re-analysis of the deposited data

Results flagged for a closer look

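For 7 members and both summed pairs, the change with edaravone differed between stressed and unstressed cells by edgeR's test of the interaction. The differences of log2 fold changes were 1.36 for Hspa1b, 0.88 for LOC108348108, 1.06 for their sum, 1.20 for Hspa8, 1.25 for LOC680121, 1.23 for their sum, 1.11 for Hsph1, 0.51 for Hspa4 and 0.64 for Hspa9. The same test passed for 12 of 44 partner genes. Over all genes, 8.42% passed with a positive difference and 7.04% with a negative one. The 9 named in the report had differences of 0.51 for Hspa5, 0.88 for Dnaja1, 0.54 for Dnaja2, 0.60 for Dnajb2, 0.59 for Bag1, 1.32 for Bag3, 1.18 for Stip1, 0.74 for St13 and 0.65 for Hsf2. The other 3, named after their values were seen, were Dnajb4 (0.62), Dnajb6 (0.53) and Dnajc7 (0.40). All these differences were positive with TMM factors. Under library totals, 3 partner genes had a positive interaction that passed (Dnaja1, Bag3 and Stip1) and 9 a negative one, so the partners' calls depend on the scaling, and LOC108348108, Hspa4 and Hspa9 lost theirs. The viruses and ethacrynic acid were given together, so which of them the difference goes with cannot be told apart.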

How the results depend on the processing

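Of 1131 fold changes of members and pairs under the alternatives, 1092 kept their direction and side of the threshold, 33 lost the call, 6 gained it and 0 reversed. A sign change of a value that never passed counts as kept. Calls of TDP-43 + EA against Control changed for Hspa9 alone. It passed with DESeq2 (adjusted p = 0.0481) and, in edgeR, with the replicate number as a block (adjusted p = 0.00206). In edgeR it also passed without Control replicate 1 (adjusted p = 0.0279), TDP-43 + EA + Eda replicate 1 (adjusted p = 0.0441) or replicate 2 (adjusted p = 0.0424). With library totals in place of TMM, members with a positive interaction fell from 7 to 4, and with limma-trend to 3 under each of its 3 settings. The calls lost are named with the results above. The cause was not tested.

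Counts over all genes depended on scaling. With library totals, edaravone in stressed cells gave 816 higher and 4520 lower, TDP-43 + EA + Eda against Control 2325 higher, and the interaction 377 higher and 2927 lower. Limma-trend with a pseudocount of 1, of 0.1, and of 1 over all genes gave 883, 833 and 801 higher and 4219, 4249 and 3898 lower for edaravone in stressed cells. It gave 2136, 2126 and 2307 higher and 6155, 6157 and 6106 lower for TDP-43 + EA + Eda against Control, and 411, 382 and 323 higher and 2771, 2781 and 2275 lower for the interaction. DESeq2 gave 1674 higher for the interaction. For Eda against Control, with 0 in edgeR, DESeq2 gave 6 higher and 3 lower, no filter, the compared libraries alone and limma-trend at either pseudocount 1 higher each, and limma-trend over all genes 2 lower. Leaving out 1 library gave 0 to 1 higher there (1 without Eda replicate 3), and 566 to 1286 lower for the interaction against 931 (566 without Control replicate 1, 595 without Eda replicate 2 and 616 without TDP-43 + EA replicate 3).

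The replicate numbers were not taken as pairs, since the labels do not say what a number marks. Deviations of same-numbered libraries correlated weakly, at 0.0216 to 0.134, with 3 of 18 over 0.1. Even so, each library correlated best with its own number in 36 of 36 cases. Same-numbered libraries thus shared something in these data, which the main fit does not account for. What they share was not tested. With the replicate number as a block, 8 members rose and 1 fell in TDP-43 + EA against Control (Hspa9 added, edgeR adjusted p = 0.00206), 8 rose with edaravone and 8 had a positive interaction (Hspa4l added, edgeR adjusted p = 0.0368), and all genes gave 2777 higher and 2726 lower in the first comparison. The summed pairs were not run with DESeq2, limma-trend or other filters. Library depth was uneven, since TDP-43 + EA + Eda replicate 1 held 43.91 M counts and the others 17.42 to 24.64 M.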
